A study of Arabidopsis thaliana with 23 samples.

Results

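Small RNAs of *zmp-2 shh1-1* inflorescences were set against those of *zmp-2* to show which siRNA loci need SHH1 when ZMP is absent. The comparison rests on 6 of the 23 libraries of the series, chosen by genotype and batch labels: 3 of *zmp-2* and 3 of *zmp-2 shh1-1*, all of sequencing batch B. All were made from total RNA of Col-0 inflorescences, from plants kept at 23 °C with 16 h of light and 8 h of dark. Both groups carry *zmp-2*, an insertion allele of *ZMP*, and the double mutant also carries *shh1-1*, an insertion allele of *SHH1*. A *shh1-1* line with intact *ZMP* was not analysed here, so every value describes the loss of SHH1 in a *zmp-2* background. WT libraries of batch B (n = 3) and the *zmp-2* libraries of batch A (n = 3), which are not part of the comparison, give reference values. Windows were also sorted by the batch A comparisons of *zmp-2* (n = 3) and of the Pol IV mutant *nrpd1-3* (n = 2) with WT (n = 3), and *zmp-2 nrpd1-3* of batch B (n = 3) entered 1 alternative fit.

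In RNA-directed DNA methylation (RdDM), RNA polymerase IV (Pol IV) makes short transcripts that RDR2 turns into double-stranded RNA and DCL3 cuts mainly into 24-nt siRNAs. These siRNAs guide DRM2 to methylate DNA, including cytosines in the CHH context (H is A, C or T), at transposons and other repeats. SHH1 is a chromatin reader that binds histone H3 methylated at lysine 9 and helps to bring Pol IV to many of its loci. Loci that keep siRNAs without SHH1 are known to use other CLSY-dependent routes of Pol IV recruitment.

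The files count reads of 21 to 24 nt in 100-bp windows and give them under 2 scalings, relative to 45S rRNA reads (RPMR, reads per M, or mega, 45S rRNA reads) and relative to mapped reads (RPM). The 2 scalings pull apart here. The *zmp-2* libraries held 0.384 to 0.470 M 45S rRNA reads and the *zmp-2 shh1-1* libraries 0.978 to 1.53 M, while mapped reads ran from 2.31 to 3.67 M and from 3.57 to 4.23 M. Reads of 24 nt numbered 1038674 to 1832588 per *zmp-2* library and 1500015 to 1847963 per *zmp-2 shh1-1* library. Replicate 3 of *zmp-2 shh1-1*, the library with the most 45S rRNA reads, differed more from its replicates (chi-square per degree of freedom 5.76 and 5.82 over windows) than any other pair within a group (2.18 to 2.79). Chloroplast reads made up 1.88 to 2.08% of 21- to 24-nt reads in *zmp-2* and 1.85 to 2.82% in *zmp-2 shh1-1*, and their part in the results was not tested. The tissue could not be checked by marker transcripts, which were not measured. The mutated genes could not check the labels either, since *SHH1* held 0, 0 and 0 24-nt reads in *zmp-2* and 0, 0 and 3 in *zmp-2 shh1-1*.

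At a large minority of windows 24-nt siRNAs were lower in *zmp-2 shh1-1*, and at very few they were higher under both scalings. Of 101166 windows tested, 29286 (28.9%) were lower in *zmp-2 shh1-1* and 301 (0.298%) were higher under 45S rRNA scaling (edgeR quasi-likelihood test, at least 2-fold, FDR of at most 0.05). Under mapped-read scaling 19269 were lower (19.0%) and 5313 were higher (5.25%), so the higher windows grew from 1.02% to 21.6% of those called. The count of 301 is not stable, with 158 and 192 higher windows without replicates 1 and 2 of *zmp-2 shh1-1* and 166 without replicate 3 of *zmp-2*. The median log2 fold change over all tested windows was -1.004 under 45S rRNA scaling and 0.03 under mapped-read scaling. Every window that was lower under mapped-read scaling was also lower under 45S rRNA scaling, and every window higher under 45S rRNA scaling was also higher under mapped reads. The 19269 windows (19.0%) lower under both scalings and the 301 (0.298%) higher under both are called SHH1-dependent and SHH1-raised windows from here on. Both names refer to plants without ZMP. Whether the plants or the libraries differ in 45S rRNA fragments cannot be told apart with these files.

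The SHH1-dependent windows joined into 10346 loci when windows no more than 200 bp apart were merged, and 5401 of these loci (52.2%) were single windows. Another 411 loci held at least 5 windows and 13 held at least 10. The longest ran over 29 windows, chr3:16158601-16161700, across the protein-coding genes AT3G44570 and AT3G44580. It held 2115, 1900 and 1205 24-nt reads in the *zmp-2* libraries and 719, 590 and 316 in the *zmp-2 shh1-1* libraries, against 2668, 2033 and 1552 in WT. Under mapped-read scaling this was 522 to 576 RPM in the *zmp-2* libraries and 88.5 to 170 RPM in the *zmp-2 shh1-1* libraries. Among 27444 nuclear protein-coding genes, 1167 held an SHH1-dependent window within the gene and 3455 within the 1000 bp upstream of it. How many of the genes held any tested window was not counted, so these numbers cannot be read as shares or set against each other.

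The strongest losses were near complete. At the 8 named loci, which were those with the smallest FDR under both scalings, each *zmp-2 shh1-1* library held 1 to 17 reads and each *zmp-2* library 312 to 6194. All 8 lie in chromosome arms. Of these, 7 are intergenic and the last lies in the miRNA gene *MIR5644*.

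The window chr3:10008601-10008700, 427 bp upstream of the protein-coding gene AT3G27140, held 4331, 3880 and 2211 24-nt reads in *zmp-2* and 8, 17 and 9 in *zmp-2 shh1-1*. The groups were 7807 RPMR ± 1874 and 9.85 ± 5.03 (SD, n = 3 each), a log2 fold change of -9.63 ± 0.58 under 45S rRNA scaling (SE, edgeR FDR 1.9e-19) and -8.56 ± 0.26 under mapped-read scaling (SE, FDR 2.8e-16). WT held 4323, 3944 and 2569, so the locus was already rich in siRNAs with ZMP and SHH1 present. The window chr1:12215201-12215300, 888 bp upstream of AT1G33700, held 6194, 4636 and 1690 reads in *zmp-2* and 13, 14 and 11 in *zmp-2 shh1-1*. WT held 1183, 1253 and 618 there, and the change from *zmp-2* to *zmp-2 shh1-1* was -9.71 ± 0.59 on the log2 scale under 45S rRNA scaling (SE, edgeR FDR 2.0e-19). Only 157, 140 and 65 reads of 23 nt accompanied these in *zmp-2*, or 0.0289 per 24-nt read over the 3 libraries, well under the whole-library ratio given below.

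Losses of this kind were also found beside genes with known products. Upstream of *UBP6*, which encodes a ubiquitin-specific protease, chr1:19180301-19180400 held 534, 533 and 312 24-nt reads in *zmp-2* and 2, 3 and 1 in *zmp-2 shh1-1*. Upstream of *FED A*, which encodes a leaf ferredoxin, chr1:22443801-22443900 held 603, 564 and 460 against 2, 5 and 2. Downstream of *CBL8*, which encodes a calcineurin B-like calcium sensor, chr1:23946901-23947000 held 716, 650 and 326 against 2, 1 and 3. WT held 403 to 689 reads at these. The log2 fold changes under mapped-read scaling were -8.08 ± 0.34 near *UBP6*, -7.80 ± 0.33 near *FED A* and -8.34 ± 0.35 near *CBL8* (SE, edgeR FDR 5.0e-14 each).

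The other 3 named losses were at chr3:20660201-20660300, 660 bp upstream of AT3G55672, at chr3:10753301-10753400 near the tRNA gene AT3G28685 and at chr5:16650001-16650100 in *MIR5644* (AT5G06175, 16649994 to 16650138, plus strand). The window in *MIR5644* held 915, 797 and 392 24-nt reads in *zmp-2* and 8, 6 and 7 in *zmp-2 shh1-1*, a log2 fold change of -6.91 ± 0.29 under mapped-read scaling (SE, edgeR FDR 5.0e-14). The windows near AT3G55672 and AT3G28685 changed by -8.24 and -7.29 on the same scale. Each of the 8 windows kept its call and its direction in every alternative in which it was tested.

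Some of the most abundant siRNA windows were called under neither scaling. The 6 windows with the highest *zmp-2* level among those called under neither scaling, and within 0.3 of no change on the log2 scale under mapped reads, held 1751 to 6755 reads in every library of both groups. At chr4:13902801-13902900, 801 bp downstream of *PYL10*, which encodes an abscisic acid receptor, *zmp-2* held 5247, 4625 and 2792 24-nt reads and *zmp-2 shh1-1* held 6370, 6080 and 6755. Its log2 fold change was -0.79 ± 0.38 under 45S rRNA scaling (SE, edgeR FDR 0.12) and 0.29 ± 0.15 under mapped reads (SE, FDR 0.17). At chr3:15682301-15682400, in the transcribed pseudogene AT3G43832, the counts were 3895, 3504 and 2124 against 4348, 4983 and 2963, with log2 fold changes of -0.97 ± 0.39 (SE, edgeR FDR 0.054) and 0.03 ± 0.16 (SE, FDR 0.91). The other 4, which touch or lie nearest to AT5G04853, AT1G65820, AT2G06960 and AT5G56070, gave values from -0.95 to -0.80 under 45S rRNA scaling and from 0.13 to 0.22 under mapped-read scaling. All 6 were negative under one scaling and positive under the other, so no direction can be given for them, although their groups did not overlap under 45S rRNA scaling. Of these 6, 4 lie in arms and 2 in pericentromeres.

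**Figure D1:**
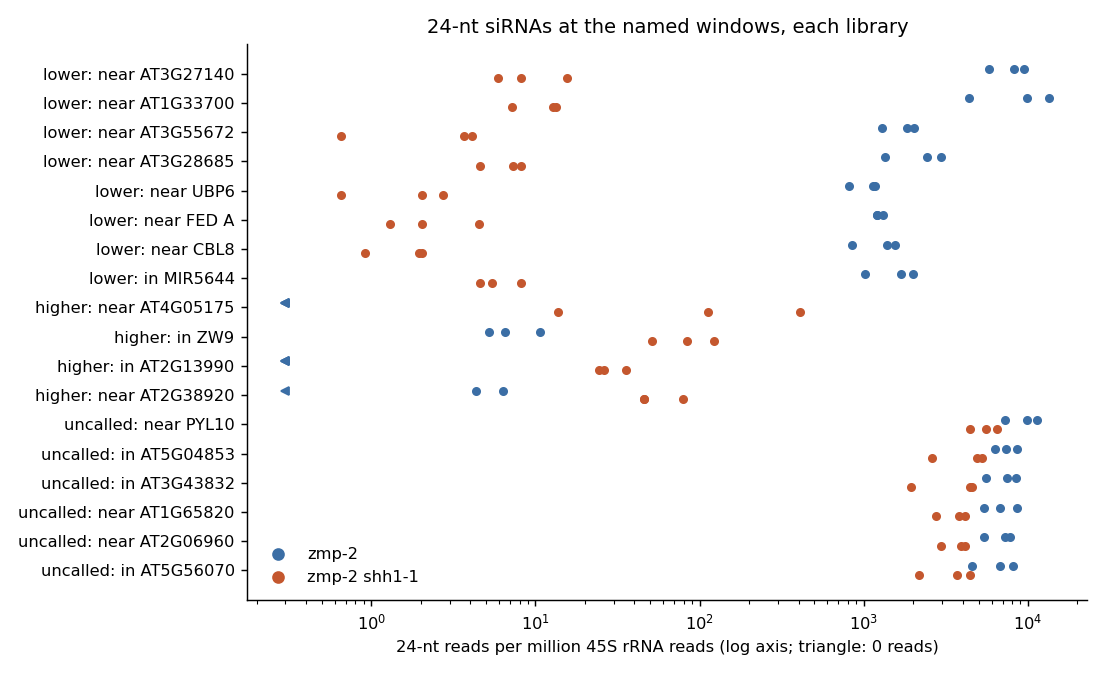
24-nt reads per M 45S rRNA reads (log axis) at the 8 named windows that were lower, the 4 that were higher and the 6 that were called under neither scaling, labelled by the gene they lie in or nearest to; each point is 1 library of *zmp-2* or *zmp-2 shh1-1*, and triangles mark 0 reads. At the lower windows the *zmp-2 shh1-1* points lie far to the left of the *zmp-2* points. At the uncalled windows they lie a short way to the left, without overlap between the groups.

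The sequences of 4 SHH1-dependent windows and 2 uncalled windows are shown because base composition differed between such windows, as described further on. Capitals mark cytosines in the CHH context, which are among the sites that RdDM siRNAs guide methylation to. A capital C is such a site on the printed plus strand and a capital G one on the other strand (RefSeq TAIR10.1, printed 5′ to 3′). The first 4 are dependent windows and the last pair uncalled ones. Of the dependent ones, those near AT3G27140, *UBP6* and *CBL8* are the 3 lowest in G and C of the 8 named, at 21 to 23%, and the one in *MIR5644* held 39%, within the 36 to 50% of the 6 uncalled windows.
near AT3G27140, chr3:10008601-10008700: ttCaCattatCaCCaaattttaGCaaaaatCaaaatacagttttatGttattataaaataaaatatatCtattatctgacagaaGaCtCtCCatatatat
near *UBP6*, chr1:19180301-19180400: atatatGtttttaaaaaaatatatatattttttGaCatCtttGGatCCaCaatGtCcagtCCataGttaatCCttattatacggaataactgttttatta
near *CBL8*, chr1:23946901-23947000: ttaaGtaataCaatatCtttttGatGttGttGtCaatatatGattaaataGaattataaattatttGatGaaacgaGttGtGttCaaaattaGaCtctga
in *MIR5644*, chr5:16650001-16650100: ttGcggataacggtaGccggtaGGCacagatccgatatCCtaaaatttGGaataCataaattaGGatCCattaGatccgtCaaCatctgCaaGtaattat
near *PYL10*, chr4:13902801-13902900: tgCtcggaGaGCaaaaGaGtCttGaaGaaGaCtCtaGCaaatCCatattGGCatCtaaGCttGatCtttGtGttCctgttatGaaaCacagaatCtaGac
in AT3G43832, chr3:15682301-15682400: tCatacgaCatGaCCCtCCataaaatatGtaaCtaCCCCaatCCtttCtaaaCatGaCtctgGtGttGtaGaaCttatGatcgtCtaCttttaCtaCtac
The other 4 named dependent windows held 27, 33, 35 and 45% G and C, so base composition did not separate the named windows.

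SHH1-dependent windows were more frequent in chromosome arms than around centromeres. In chromosome arms 15421 of 45863 tested windows (33.6%) were SHH1-dependent, and in pericentromeres 3838 of 54689 (7.02%), against 19.0% of all windows. The median log2 fold change was -1.97 in arms and -0.56 in pericentromeres under 45S rRNA scaling, and -0.93 and 0.47 under mapped-read scaling. Pericentromeres are the regions around each centromere where coding sequence is sparse, and they are dense in transposons. All 5 chromosomes showed the split. The share of SHH1-dependent windows lay between 29.6% (chromosome 4) and 35.8% (chromosome 3) in arms, and between 5.88% (chromosome 5) and 7.73% (chromosomes 2 and 4) in pericentromeres.

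The rise with distance was steep at first and then levelled. Distance was taken from the 100-kb bin of each chromosome with the least coding sequence. Within 0.5 Mb of that bin 3.43% of tested windows were SHH1-dependent. The share was 4.90% between 0.5 and 1 Mb, 9.24% between 1 and 2 Mb, 22.1% between 2 and 3 Mb and 32.4% between 3 and 4 Mb. From there it stayed between 35.5% and 39.97% to the chromosome ends. Higher windows took the opposite course, and under mapped-read scaling 10.7% of tested windows within 0.5 Mb were higher, against 2.90% beyond 8 Mb and 5.25% of all windows.

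**Figure D2:**
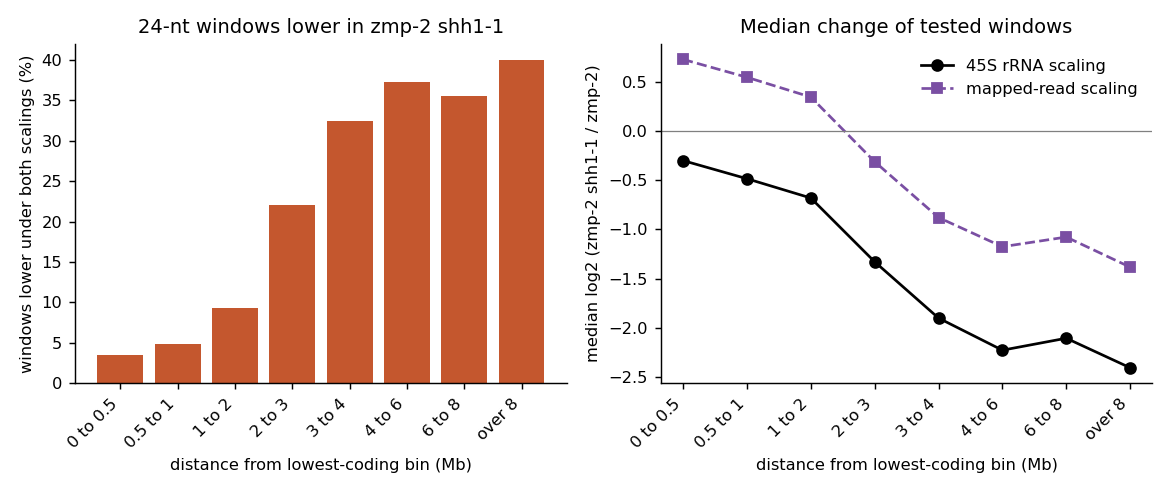
Left, percentage of tested 24-nt windows that were lower in *zmp-2 shh1-1* under both scalings, by distance (Mb) from the bin with the least coding sequence. Right, median log2 fold change of the tested windows in the same bands under 45S rRNA (circles) and mapped-read (squares) scaling; both curves fall with distance, from -0.30 and 0.73 in the innermost band to -2.41 and -1.38 in the outermost.

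The same shift could be read within each library, with no scaling between libraries. Pericentromeric windows gave 31.7, 32.1 and 32.5% of nuclear 24-nt reads in *zmp-2* and 42.9, 43.1 and 42.8% in *zmp-2 shh1-1*. The groups did not overlap, with a mean share of 32.1% ± 0.394 for *zmp-2* and 43.0% ± 0.164 for the double mutant (SD, n = 3 each), a difference of 10.9 percentage points (p = 0.1 by a two-sided exact permutation test, which cannot go lower with 3 against 3, and 0.103 after Benjamini-Hochberg adjustment over 35 tests). Among windows with at least 90% unique 24-mers the difference was smaller, at 4.73 percentage points. WT of the same batch had 33.5% ± 0.484 (SD, n = 3). On single chromosomes the difference ran from 8.82 points on chromosome 2 to 12.8 points on chromosome 5, again without overlap on any of the 5 (exact permutation p = 0.1 each).

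By distance, the share was higher in *zmp-2 shh1-1* in each of the 3 bands within 2 Mb and lower in 4 of the 5 bands beyond it. The innermost 0.5 Mb went from 4.97% ± 0.194 to 8.15% ± 0.127 of nuclear 24-nt reads (SD, n = 3 each). The band between 6 and 8 Mb went from 7.72% ± 0.0543 to 5.11% ± 0.236 (SD, n = 3 each), and the groups did not overlap in either band (exact permutation p = 0.1 each). The exception was the outermost band. Beyond 8 Mb the share was 21.8% ± 0.150 and 20.9% ± 0.780 (SD, n = 3 each) with overlap between the groups (exact permutation p = 0.2), although 39.97% of its windows were SHH1-dependent. The uncalled windows near *PYL10*, AT5G04853, AT1G65820 and AT5G56070, with 1751 to 6755 reads per library, all lie in that band. Their part in the share of the band was not tested.

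**Figure D3:**
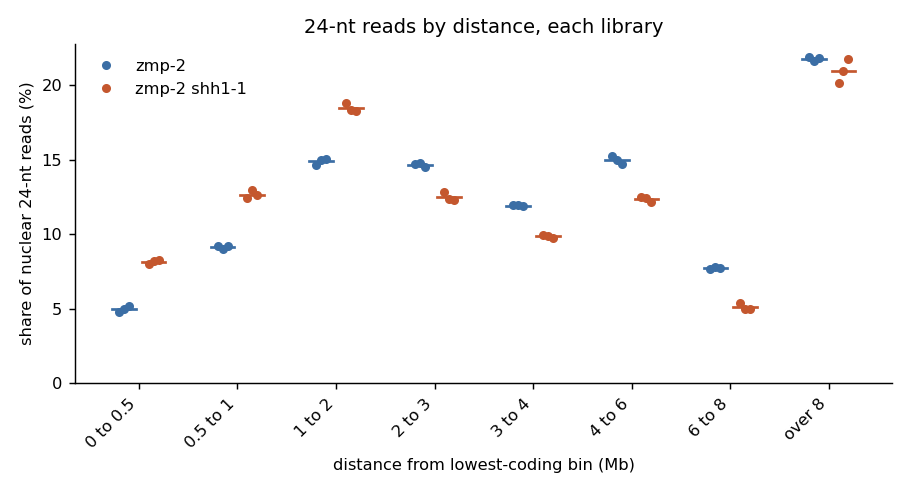
Share (%) of nuclear 24-nt reads from windows at each distance (Mb) from the bin with the least coding sequence; each point is 1 library and each bar the mean of 3. *zmp-2 shh1-1* lies above *zmp-2* in the 3 bands within 2 Mb, below it from 2 to 8 Mb, and overlaps it beyond 8 Mb.

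The share of SHH1-dependent windows also differed with the level of siRNAs in *zmp-2*, which was read from the independent *zmp-2* libraries of batch A. Where those libraries together held 10 to 29 24-nt reads, 5.27% of windows were SHH1-dependent, and where they held 300 or more but under 1000, 59.8% were. Windows with few reads can seldom be called, and the part of this in the gradient was not tested. The median log2 fold change under mapped-read scaling, which needs no call, went from 0.28 to -2.62 between the same classes. Of windows with 1000 or more reads 47.3% were dependent, with a median of -0.18.

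Abundant windows of arms and pericentromeres differed in how their log2 fold changes were spread. Among 4808 arm windows with at least 300 reads in batch A *zmp-2*, 1552 (32.3%) stayed within 2-fold of no change under mapped-read scaling. Another 2520 (52.4%) had a log2 fold change under -3, 513 (10.7%) lay between -3 and -1 and 223 (4.64%) were over 1. In pericentromeres 681 of 1445 such windows (47.1%) stayed within 2-fold and 336 (23.3%) were under -3. There 202 (14.0%) lay between -3 and -1 and 226 (15.6%) were over 1. Values under -3 were thus found in both regions, and they made up a smaller part of the pericentromeric windows. The other scaling would move all windows by a similar amount, so the classes depend on it and the distance between the peaks hardly does.

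**Figure D4:**
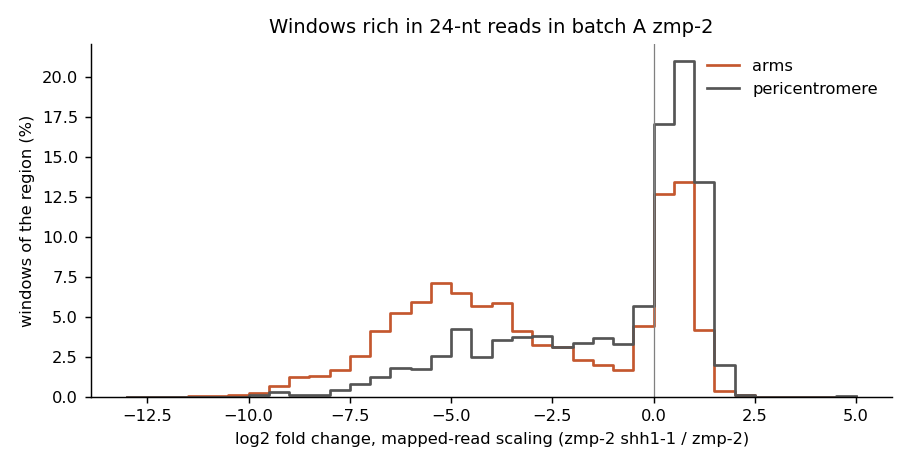
Distribution of the log2 fold change under mapped-read scaling (*zmp-2 shh1-1* over *zmp-2*) for windows with at least 300 24-nt reads in the batch A *zmp-2* libraries, as a percentage of the 4808 arm windows and of the 1445 pericentromeric windows, in bins of 0.5. Both curves have a narrow peak just above 0, and the arm curve has a second, broad peak near -5.

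Base composition differed as well. SHH1-dependent windows had a median of 32.0% G and C, against 38.0% in all tested windows. The difference held within each region, with 32.0% against 37.0% for other windows in arms and 34.0% against 41.0% in pericentromeres. In arms 48.3% of windows under 25% G and C were SHH1-dependent and 18.01% of those over 40%, and in pericentromeres 14.3% and 2.80%. With fewer cytosines and guanines, the SHH1-dependent windows also held fewer CHH sites, a mean of 22.9 against 26.5 per window. Across 100552 nuclear windows, as a description, the log2 fold change had a Spearman correlation of -0.40 with distance from the bin with the least coding sequence. Its correlation with G and C content was 0.34, and windows of a locus are not independent of each other.

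By annotation, SHH1-dependent windows were most frequent in introns (31.6% of 2946) and UTRs (32.0% of 1569), then in intergenic windows (26.1% of 56371), and least frequent in coding sequence (14.1% of 5065) and pseudogenes (6.16% of 32900), a class that includes many transposon remnants. Within arms alone the order changed, with intergenic windows first at 41.9%, followed by introns at 37.0% and UTRs at 35.5%, while coding sequence (18.4%) and pseudogenes (15.0%) stayed last. Reads that fit several copies of a repeat may be placed at the wrong copy, and the split by position was also present where this is rare. Among windows with at least 90% unique 24-mers, 27.4% in arms and 7.40% in pericentromeres were SHH1-dependent.

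The 2 batch A comparisons of single mutants with WT share no library with this one, and they sort the windows further. Windows that lost siRNAs in *nrpd1-3*, which lacks the largest subunit of Pol IV, made up most of the tested set. Of these 68638, 26.3% were SHH1-dependent, against 19.0% of all windows and 4.41% of the 408 not called there. None of the 54 windows that gained siRNAs in *nrpd1-3* was. Windows with too few reads in that comparison fall in none of these classes. The part of read number in these shares was not tested. Windows that had lost siRNAs in *zmp-2* of batch A were rarely SHH1-dependent, with 280 of 7534 (3.72%), against 21.6% of windows not called there and 18.4% of the 3341 that had gained siRNAs. The low share stood in arms (6.14% of 3548, against 37.5% of uncalled windows) and in pericentromeres (1.56% of 3986, against 8.01%). Such windows hold fewer reads in *zmp-2* by the way they were called, and the part of read number in their low share was not tested.

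The SHH1-raised windows were few and sat mostly in pericentromeres (68.1%, against 54.4% of tested windows). They formed 261 loci, 228 of them single windows. At chr1:21611801-21611900, in a UTR of the protein-coding gene *ZW9* (AT1G58270), the *zmp-2* libraries held 3, 5 and 2 24-nt reads and the *zmp-2 shh1-1* libraries 120, 92 and 79, a log2 fold change of 3.48 ± 0.59 under 45S rRNA scaling (SE, edgeR FDR 2.3e-06) and 4.48 ± 0.39 under mapped reads (SE, FDR 2.5e-09). WT held 2, 1 and 0, close to the *zmp-2* counts. The window chr2:16252901-16253000, nearest to AT2G38920, was alike. The *zmp-2* libraries held 2, 3 and 0 reads there, the *zmp-2 shh1-1* libraries 78, 50 and 70, and each WT library 0.

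The remaining pair of named rises had no 24-nt read in any *zmp-2* library of batch B. In the *zmp-2* libraries of batch A together, the window in AT2G13990 held 9 such reads and the other window 0. In the pseudogene AT2G13990, chr2:5880001-5880100 held 24, 39 and 40 reads in *zmp-2 shh1-1* and 26, 19 and 15 in WT, at least 12.5-fold above *zmp-2* under 45S rRNA scaling, taking 3 counts over the group as the floor. At chr4:3056801-3056900, 757 bp from the noncoding gene AT4G05175, the counts were 402, 124 and 21 in *zmp-2 shh1-1*, and 0, 0 and 131 in WT. None of its 24-mers is unique, so its reads can be assigned to other copies, and the replicates were far apart.

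Some genes were listed because the study displays them as examples. Reads at the long noncoding gene AT3G07775 and the protein-coding gene AT5G43755 were nearly gone in the double mutant. AT3G07775 held 223, 209 and 149 24-nt reads in *zmp-2* and 4, 5 and 2 in *zmp-2 shh1-1*, and AT5G43755 held 294, 250 and 185 against 3, 4 and 2. At the protein-coding genes AT2G20465 (5, 7 and 5 against 13, 10 and 7) and AT4G11485 (10, 16 and 13 against 42, 29 and 26) no window was called. WT of batch B held 2, 0 and 0 24-nt reads at AT3G07775 and 2, 8 and 11 at AT5G43755. At AT2G20465 and AT4G11485 each WT library held 0. Over all 4 genes, 4 of 10 tested windows were SHH1-dependent, against 19.0% of all windows.

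Some known targets of RdDM held SHH1-dependent windows and others did not. Over 6 such genes with 2000 bp upstream, 8 of 47 tested windows were SHH1-dependent, against 19.0% of all windows, and all 8 lay at *FWA* or *SDC*. At *FWA*, a homeobox gene silenced through methylated repeats, all 4 tested windows were, and the region held 102, 103 and 55 24-nt reads in *zmp-2* and 21, 14 and 14 in *zmp-2 shh1-1*. At *SDC*, an F-box gene silenced through promoter repeats, 4 of 14 were. None was at *ALN* (9 tested), which encodes allantoinase, at the stomatal regulator *EPF2* (11), at *QQS* (8) or at the DNA demethylase gene *ROS1* (1). At *ALN* the reads were 274, 363 and 226 against 670, 502 and 513, a pooled log2 ratio of -0.49 per 45S rRNA read and 0.63 per mapped read, so its direction turned with the scaling.

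The size profile of the libraries also differed. The 24-nt share of 21- to 24-nt reads went from 60.6% ± 0.970 to 54.0% ± 1.37, and the 23-nt share from 13.3% ± 0.795 to 8.32% ± 0.429 (SD, n = 3 each). The 21-nt share went from 13.9% ± 0.128 to 21.3% ± 0.872 and the 22-nt share from 12.1% ± 0.140 to 16.4% ± 0.856 (SD, n = 3 each). Without the windows of miRNA genes the 24-nt share differed by -2.01 points in place of -6.65, and the 21-nt share by 2.64 points in place of 7.38. None of the 4 sizes overlapped between the groups (exact permutation p = 0.1 each, 0.103 after adjustment). The 24-nt reads per 45S rRNA read were 3.99, 3.65 and 2.70 in *zmp-2* and 1.89, 1.55 and 0.979 in *zmp-2 shh1-1*. Per 45S rRNA read the 21-nt reads were also lower, by 0.48 on the log2 scale, and per mapped read they were higher, by 0.60.

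Other read lengths followed the 24-nt pattern unequally. Of 26106 windows tested for 23-nt reads, 13840 (53.0%) were lower and 67 (0.257%) higher under 45S rRNA scaling. Under mapped-read scaling 10967 (42.0%) were lower and 864 (3.31%) higher, and the windows called in the same direction under both numbered 10967 lower and 67 higher. For 22-nt reads 4811 of 21181 (22.7%) were lower and 77 (0.364%) higher, which became 3882 (18.3%) and 2411 (11.4%) under mapped-read scaling. For 21-nt reads the counts were 3099 (23.1%) and 66 (0.491%) of 13444, and 2415 (18%) and 1376 (10.2%) under mapped-read scaling. The share of higher windows among those called thus moved from 1.58% to 38.3% for 22 nt and from 2.09% to 36.3% for 21 nt. Windows had to pass a read minimum of 10 for each size, so these sets differ and their shares cannot be set against each other.

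There were fewer 23-nt reads per 24-nt read in every *zmp-2 shh1-1* library than in any *zmp-2* library. Whole libraries held 0.207, 0.215 and 0.239 in *zmp-2* and 0.153, 0.160 and 0.149 in *zmp-2 shh1-1*, means of 0.220 ± 0.0167 and 0.154 ± 0.00560 (SD, n = 3 each), a difference of -0.51 on the log2 scale (exact permutation p = 0.1, 0.103 after adjustment over 35 tests). WT of batch B was at 0.222 ± 0.0104 (SD, n = 3), close to *zmp-2*. In pericentromeres the ratio was 0.207 ± 0.0169 and 0.145 ± 0.00211, and in arms 0.223 ± 0.0160 and 0.154 ± 0.00730 (SD, n = 3 each). Both differed without overlap, as did each of the 8 bands of distance, where the log2 difference ran from -0.66 to -0.40 (exact permutation p = 0.1 each). The ratio is taken within a library, so the scaling does not enter. Over the same libraries the ratios of 22-nt and of 21-nt reads to 24-nt reads were higher in *zmp-2 shh1-1*, at 0.304 ± 0.0236 against 0.1998 ± 0.00553 and at 0.395 ± 0.0263 against 0.230 ± 0.00482 (SD, n = 3 each).

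Window by window few changes passed the test, and a window that did not pass cannot be read as unchanged. The number of 23-nt reads per 24-nt read was tested in 25811 windows with at least 10 reads of each size, and the median log2 change was -0.31. Only 94 windows (0.364%) were lower and 4 (0.0155%) higher at an FDR of at most 0.05 (edgeR quasi-likelihood test of the size-by-genotype term). The 98 called windows became 43, 56 and 58 without replicates 1, 2 and 3 of *zmp-2 shh1-1*, and 56 without replicate 2 of *zmp-2*. When the genome-wide ratio of each library was taken as the reference, 43 were lower and 194 higher, so the split turned from 4 of 98 to 194 of 237 called windows higher. The balance of higher and lower calls thus turned with the reference chosen. The median change was -0.34 in pericentromeres (10101 windows) and -0.29 in arms (15490), and stood at 0.01 in 220 organelle windows.

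The clearest single change was at chr1:17831301-17831400, 881 bp upstream of *GCR1*, which encodes a protein similar to G-protein-coupled receptors. This window made far more 23-nt than 24-nt reads in *zmp-2*, with 665, 737 and 337 of 23 nt beside 143, 148 and 69 of 24 nt. In *zmp-2 shh1-1* it held 7, 7 and 5 of 23 nt beside 14, 15 and 9 of 24 nt. The ratio over the 3 libraries went from 4.83 to 0.5, a log2 change of -3.25 ± 0.43 (SE, edgeR FDR 1.2e-09). Its sequence is shown because its reads have this unusual length. Capitals mark CHH cytosines as above.
near *GCR1*, chr1:17831301-17831400: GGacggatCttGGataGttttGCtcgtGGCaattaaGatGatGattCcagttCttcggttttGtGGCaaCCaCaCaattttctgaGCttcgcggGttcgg
At chr2:17635701-17635800, 404 bp downstream of AT2G42340, the 24-nt reads were not called (103, 83 and 49 against 131, 75 and 171), while the 23-nt reads went from 38, 22 and 16 to 3, 7 and 8. The ratio there changed by -2.71 ± 0.39 on the log2 scale (SE, edgeR FDR 5.0e-08). The other 2 named falls, nearest to the pseudogenes AT5G34412 and AT1G08105, were in windows where 6% of 24-mers are unique, with changes of -2.43 and -4.50.

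A higher ratio was called in only 4 windows. At *TAS3*, whose transcript yields trans-acting siRNAs, chr3:5862101-5862200 held 31, 25 and 20 reads of 23 nt and 44, 39 and 15 of 24 nt in *zmp-2*. In *zmp-2 shh1-1* it held 38, 52 and 39 beside 19, 25 and 19, a log2 change of 1.38 ± 0.36 (SE, edgeR FDR 0.034). Upstream of *DIS1*, which encodes an actin-related protein, chr1:4494001-4494100 went from 10, 9 and 6 reads of 23 nt to 33, 22 and 37, with 49, 66 and 34 and then 72, 52 and 48 of 24 nt. The windows nearest to *SERK5* and AT1G52120 rose in the ratio as their 24-nt reads fell, from 392, 312 and 173 to 34, 45 and 26 near *SERK5*. At the latter a single 24-nt read remained in the 3 *zmp-2 shh1-1* libraries. All 4 lost their call in several of the alternatives.

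The ratio differs between windows, so the batch B values were also set beside those of the batch A *zmp-2* libraries. Windows there with more 23-nt reads per 24-nt read were more often SHH1-dependent in batch B, from 15.4% of windows with a batch A ratio under 0.1 to 35.6% with 0.3 to 0.4 and 48.5% over 0.6. The order held in arms (26.9, 48.95 and 59.4%) and in pericentromeres (6.60, 15.6 and 25.9%). Windows with a batch A ratio of 0.3 to 0.4 gave 9.99, 10.097 and 9.75% of 24-nt reads in *zmp-2* of batch B and 6.01, 6.01 and 5.55% in *zmp-2 shh1-1*. Those with 0.1 to 0.2 went the other way, from 43.5, 43.1 and 44.4% to 52.8, 53.2 and 53.2%.

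Had each of the 74634 windows with at least 20 batch A 24-nt reads kept its batch A ratio, the 24-nt reads of the *zmp-2* libraries would have come with 0.216 to 0.218 23-nt reads each, and those of the *zmp-2 shh1-1* libraries with 0.184 to 0.189. The observed ratios in the same windows were 0.2001, 0.208 and 0.231 for *zmp-2* and 0.145, 0.152 and 0.141 for *zmp-2 shh1-1*. On the log2 scale the calculated ratios differed by -0.22 and the observed ratios by -0.54, a calculation with no test that assumes fixed ratios and covers 85.1 to 89.5% of the nuclear 24-nt reads. Within the class of 0.1 to 0.2, for example, it was 0.147, 0.153 and 0.175 in *zmp-2* and 0.126, 0.134 and 0.125 in *zmp-2 shh1-1*. The groups did not overlap in 5 of the 6 classes, and in the class over 0.6 they did, with 0.773, 0.810 and 0.819 against 0.770, 0.719 and 0.876.

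**Figure D5:**
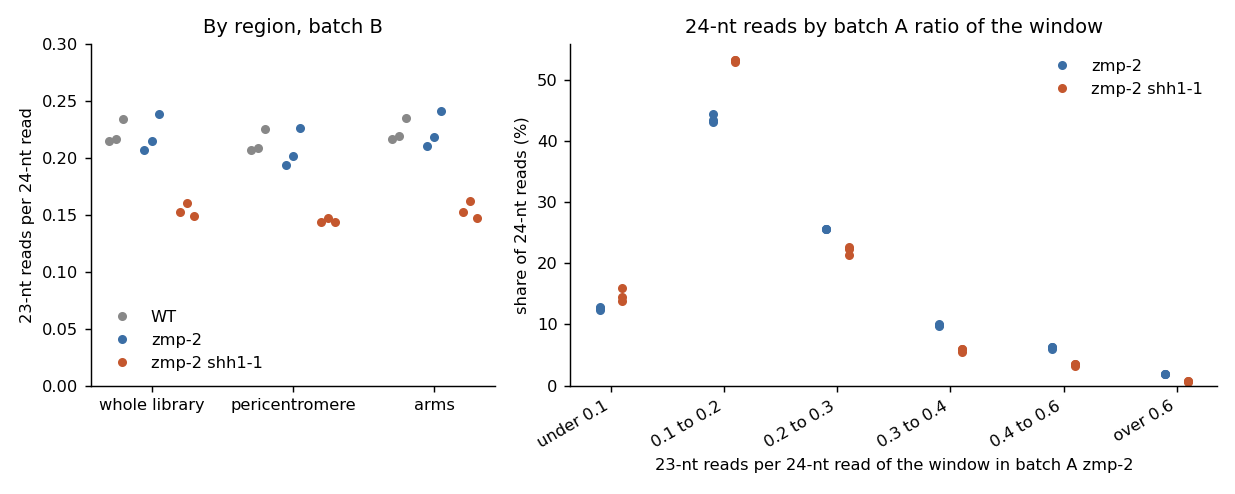
Left, 23-nt reads per 24-nt read in each library of WT, *zmp-2* and *zmp-2 shh1-1* (batch B), for the whole library, pericentromeres and arms. Right, share (%) of 24-nt reads from windows grouped by their ratio in the batch A *zmp-2* libraries, 1 point per batch B library; *zmp-2 shh1-1* lies above *zmp-2* in the classes under 0.2 and below it in all classes from 0.2.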

How the data were processed

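Small RNAs were counted in 6 libraries, 3 per genotype, and 14 further libraries served as reference or in alternatives. According to the study's methods, reads matching rRNA, tRNA or snoRNA were found with Bowtie (version 1.1.0 in the submitters' processing notes), and the rest were mapped to TAIR10 with ShortStack, each read counting in the window of its 5′ end. The deposited counts are whole reads per 100-bp window and size. The authors' RPM column is the count per M (mega) mapped reads, and their RPMR score is the count per M 45S rRNA reads. Windows absent from a file were taken as 0.

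Windows with at least 10 reads summed over the 6 libraries were tested with edgeR (version 4.0.16, R version 4.3.3; glmQLFit, glmQLFTest, trended dispersion), with 45S rRNA reads as library size and again with mapped reads. A call needed a 2-fold change and a Benjamini-Hochberg FDR of at most 0.05. The ratio of 23-nt to 24-nt reads was tested as the size-by-genotype term with a term per library, on the FDR alone. Library values were compared by exact permutation tests (scipy version 1.17.1). The series' design calls the replicates biological without saying how plants were divided. The p-values therefore set group differences against the spread between these libraries, whatever its source. Named windows were the 8 lower and 4 higher loci of smallest FDR under both scalings without overlap between groups, the 6 strongest uncalled windows and 4 ratio windows per direction. Members and lists were chosen with earlier results of these data known. Pericentromeres were the run of 100-kb bins around the bin of least coding coverage below 0.5 of the chromosome median, smoothed over 11 bins. Windows were annotated with RefSeq TAIR10.1, whose nuclear chromosome lengths fit the files. Transposon classes and mitochondrial genes were not analysed here. Floors taken from counts cover counting error only, since reads carry no molecular identifiers. The SDs and the edgeR SEs also include differences between libraries. The scripts were tested on simulated counts. There the 24-nt test recovered 101 of 200 planted changes in 20000 windows, with 4 false calls. The ratio test recovered 46 of 200 in 10000 windows, with 2 false calls. Falls and rises were planted in about equal number, with a uniform spread and 45S rRNA reads as the true library size. The data differ in the balance of calls and in the spread of replicates, so these counts cannot be carried over to the real calls. DESeq2 (version 1.42.0) and limma (version 3.58.1) served as alternatives.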

Additional observations from a re-analysis of the deposited data

How the results depend on the processing

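The share of windows lower in a single 24-nt fit was larger in arms than in pericentromeres by 32.7 percentage points under 45S rRNA scaling and kept this direction in all 16 alternatives, from 6.14 points without a read minimum to 37.4 with a minimum of 30 reads. Called 24-nt windows numbered 29587 in all, and 16483 with the minimum of 30, 13093 in windows with at least 90% unique 24-mers (both test fewer windows) and 14352 with DESeq2 and its own size factors (13164 lower, 1188 higher). Leaving out 1 library gave 20931 to 29897. For 23 nt there were 13907 calls, 4857 with the minimum of 30, 8382 with DESeq2 and 8897 to 13842 with 1 library left out. For 22 nt there were 4888, then 1230 with the minimum of 30 and 2666 to 4969 with 1 left out. For 21 nt there were 3165, then 664 with the minimum of 30, 2039 with DESeq2 and 1588 to 3110 with 1 left out. The lowest counts came without replicate 1 of *zmp-2*, and without its replicate 2 there were 9068, 2976 and 1744 for 23, 22 and 21 nt. Higher 24-nt windows, 301 in all, ranged from 158 (without replicate 1 of *zmp-2 shh1-1*) to 420 (without its replicate 3) with 1 library left out.

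The 98 windows with a changed ratio became 237 relative to the genome-wide ratio, 42 with a minimum of 1 read and 43 to 89 with 1 library left out, the lowest without replicate 1 of *zmp-2 shh1-1*. With limma on the log2 ratio there were 0, with 3257 at an unadjusted p under 0.05 (2283 by edgeR). Replicate numbers did not pair the libraries (correlations of same-numbered deviations -0.014 to -0.0044). A replicate block gave 28856 24-nt calls and 48 ratio calls, and with mapped-read scaling, added after the data were seen, 22052 24-nt calls. The pericentromeric share, the size shares and the whole-library, pericentromeric and arm ratios of 23-nt to 24-nt reads kept their direction in every alternative run. None of them can pass 0.05 with 3 against 3. In windows with at least 90% unique 24-mers the log2 difference of the ratio was -0.42 for whole libraries, -0.47 in pericentromeres and -0.41 in arms.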

Other observations

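Reads of 21 nt at miRNA and TAS genes had medians of opposite sign under the scalings, as did all 13444 tested windows of 21 nt (-0.54 and 0.50). Of 340 windows of 326 miRNA genes tested for 21-nt reads, 43 were lower and 2 higher under 45S rRNA scaling, while 16 were lower and 55 higher under mapped-read scaling, with median log2 fold changes of -0.40 and 0.63. Over all windows of 21 nt 23.1% were lower and 0.491% higher under 45S rRNA scaling, and 18% and 10.2% under mapped-read scaling. The TAS genes, whose transcripts, after cleavage guided by a miRNA, are made double-stranded by RDR6 and cut by DCL4 into trans-acting siRNAs, gave medians of -0.67 and 0.33 over 32 windows of 21 nt, with 2 lower under 45S rRNA scaling, 3 higher under mapped-read scaling and none in 1 direction under both. At *TAS1A* the 21-nt reads were 4496, 3799 and 2021 in *zmp-2* and 7092, 6058 and 3160 in *zmp-2 shh1-1*. Among 280 miRNA gene windows tested for 24-nt reads, 82 were lower under both scalings and 8 were higher, against 19.0% and 0.298% of all windows of 24 nt.

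The genes of the RdDM machinery itself carried few 24-nt reads. Over *NRPD1*, *RDR2*, *DCL3*, *CLSY1* to *CLSY4*, *AGO4*, *DRM2* and *NRPE1* a single window reached the read minimum, at *RDR2*, and it was not called.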
